A study of Homo sapiens with 3 samples.

Results

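The miRNAs described here are cut from the transcripts of H19 and IGF2, a pair of imprinted genes on human chromosome 11. The count files list 4 of them among 1921 mature miRNA names: hsa-miR-675-5p and hsa-miR-675-3p from H19, and hsa-miR-483-5p and hsa-miR-483-3p from IGF2. They were chosen by host gene, with their scaled counts in these libraries already known, so their levels and ratios are a description and carry no test. The small RNAs came from 3 strains of the human hepatocellular carcinoma (HCC) line HCCLM3, grown in DMEM without any treatment named. The parent strain was labelled with low metastasis, subclone1 with a higher ability to reach the lung, and subclone2 with an ability to reach both lung and celiac lymph node. The study's methods describe monoclonal lines grown from single cells of lung and lymph node metastases in nude mice, and call their parental line highly metastatic. Which of these lines the labels subclone1 and subclone2 stand for is not given, and a line grown from 1 cell can differ from its parent in ways unrelated to where it spreads. With 1 library per strain, differences between strains cannot be told apart from differences between cultures or library preparations.

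H19 and IGF2 lie side by side and are read from opposite parental chromosomes. H19, a long non-coding RNA, is expressed from the maternal copy, and IGF2, which encodes insulin-like growth factor 2, from the paternal copy. Shared enhancers reach only one of the genes on each chromosome, because a methylated control region between them decides whether the insulator protein CTCF can bind. Both genes are highly expressed in the fetal liver, H19 falls to a low level there after birth, and both can be expressed at high levels in liver tumours. miR-675 is released when Drosha cuts the H19 transcript itself, while the miR-483 hairpin lies within an intron of IGF2. miR-675 is known for limiting growth of the placenta and for targeting the IGF1 receptor. miR-483-3p is known for repressing the pro-apoptotic gene BBC3 (PUMA).

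The miR-675 sequences are shown because this hairpin holds all the counts of the group. The sequence source had no entry for miR-483, so its arms are not shown and their seeds were not searched for. In the RefSeq table (GRCh38.p14) the MIR675 hairpin has 73 bases and lies at chr11:1996759-1996831 on the minus strand. Its capitals mark the mature arms, the 5p arm at bases 10 to 32 and the 3p arm at bases 45 to 64. In the lines for the mature miRNAs the capitals mark the seed, bases 2 to 8, with which a miRNA pairs to its targets. hsa-miR-4466, from chromosome 6, was added because, of the 1576 listed names that have a sequence in the table, it is the one other with the seed of hsa-miR-675-5p.
MIR675 hairpin: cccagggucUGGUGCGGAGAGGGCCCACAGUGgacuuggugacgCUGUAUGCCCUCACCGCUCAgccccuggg
hsa-miR-675-5p: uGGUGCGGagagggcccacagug
hsa-miR-675-3p: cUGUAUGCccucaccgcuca
hsa-miR-4466: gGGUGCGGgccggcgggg

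In the GENCODE annotation (GRCh38) the MIR675 hairpin lies wholly inside an exon in 4 of the 5 H19 transcripts that span it. The MIR483 hairpin, at chr11:2134134-2134209 on the minus strand, lies in an intron of each of the 9 IGF2 transcripts that span it. A stretch of 137302 bases separates the hairpins. The submitters' notes name hg19, an older build, but the count files hold no coordinates, so these positions are those of the annotation alone. The 2 arms of miR-675 share no run of 15 or more bases with any other of these 1576 names, and the longest shared run has 9 bases. hsa-miR-675-5p is rich in G and C (69.6% of 23 bases). Levels are given in CPM, the counts of a miRNA in every 1000000 counts of its library. Of the 192 miRNAs that averaged 10 CPM or more over the 3 libraries, 159 have a sequence there, and their median share of G and C was 47.8%.

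The parent library held 7902438 counts, that of subclone1 3570864 and that of subclone2 4568075. The hepatocyte miRNA hsa-miR-122-5p was low, with 3.94 to 6.71 CPM, and hsa-miR-885-5p and hsa-miR-122-3p were at 0 in every library. The other hepatocyte markers examined, hsa-miR-192-5p and hsa-miR-194-5p, were present, at 108 CPM or more in each library. The summed markers of blood (5 names), endothelium (2) and neurons (2) reached at most 2.24 CPM in any library, with hsa-miR-142-3p at 0 throughout. Those of stroma (4) ranged from 2.19 to 4.94 CPM, and those of muscle (4) from 7.59 to 23.2 CPM, highest in subclone1. Most of the muscle sum was hsa-miR-1, with 6.71, 21.6 and 7.01 CPM in the parent, subclone1 and subclone2.

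The H19 miRNA was higher in both subclones than in the parent, and the IGF2 miRNA was not detected in any strain. hsa-miR-675-5p, the abundant arm, had 45 counts in the parent against 98 in subclone1 and 149 in subclone2. Its level was 5.69 CPM in the parent (exact 95% interval 4.15 to 7.62). It reached 27.4 CPM (22.3 to 33.4) and 32.6 CPM (27.6 to 38.3) in the lung strain and the dual strain, subclone1 and subclone2. The subclone intervals overlap each other, and neither overlaps that of the parent. These intervals cover counting error only, since each strain has 1 library. The tables also carry no molecular identifiers, so reads copied from the same molecule cannot be told apart. Because the parent was sequenced most deeply, its 45 counts would have been 20.3 at the depth of subclone1 and 26.0 at that of subclone2.

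hsa-miR-675-3p, the other arm, had 0 counts in the parent library against 4 in subclone1 and 7 in subclone2. A count of 0 in the parent allows up to 0.380 CPM (3 counts of the total), while the subclones had 1.12 CPM (0.305 to 2.87) and 1.53 CPM (0.616 to 3.16). The lower end of the subclone1 interval lies under the limit in the parent, while that of subclone2 lies above it.

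hsa-miR-483-5p and hsa-miR-483-3p had 0 counts in each of the 3 libraries. Either arm could have reached 0.380 CPM in the parent, and up to 0.840 and 0.657 CPM in the subclones, without being seen. Set against hsa-miR-675-5p of the same library, either arm could have had at most 6.67%, 3.06% and 2.01% of its counts. Adapter ligation favours some RNA ends over others, so such a comparison of different miRNAs describes reads rather than molecules. A count of 0 in all libraries was common, shared by 1044 of the 1921 listed names (54.3%).

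**Figure D1:**
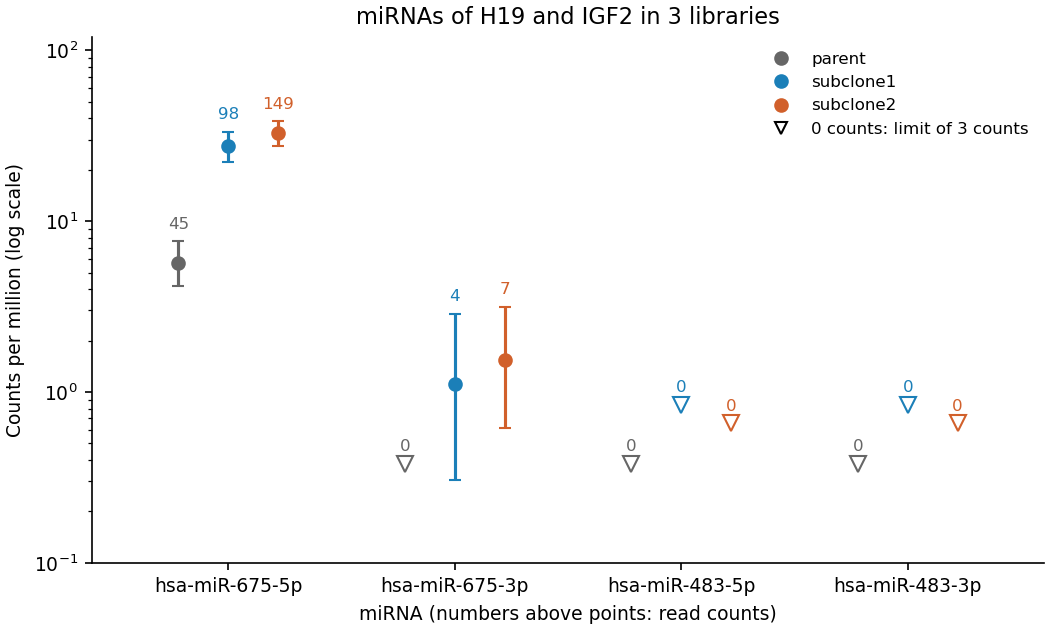
Level of each H19 and IGF2 miRNA in the parent, subclone1 and subclone2 libraries, in CPM on a log scale. Points carry exact 95% binomial intervals and their read counts, and open triangles mark the limit that a count of 0 allows. For hsa-miR-675-5p both subclones lie above the parent (5.69 CPM), at 27.4 and 32.6 CPM, while all 6 values of miR-483 are limits.

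Next, the libraries were compared by a fixed rule of size. A miRNA was kept when its mean over both libraries was 10 CPM or more. It was called higher when it rose 2-fold or more and the exact 95% conditional interval of the ratio lay above 1. In subclone1 hsa-miR-675-5p was 4.82-fold higher than in the parent (interval 3.35 to 7.02). With 0.5 counts added to each library the log2 ratio was 2.26, the third highest of 192 kept miRNAs. It was called, as were 9.9% of all kept miRNAs in this direction. Its level in the parent was itself under 10 CPM, so it entered the comparison through its level in subclone1.

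In subclone2 the same arm was 5.73-fold higher than in the parent (4.08 to 8.18). The log2 ratio of 2.51 was the second highest of 187 kept miRNAs, in a comparison where 5.88% were called higher. Here too hsa-miR-675-5p was under 10 CPM in the parent and was kept through its level in subclone2. Over all kept miRNAs the log2 ratio had a median of 0.02 for subclone1 and -0.15 for subclone2. Relative to these medians hsa-miR-675-5p stood 2.24 and 2.66 higher on the log2 scale. Both comparisons use the same parent library, so they are not independent of each other.

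Whether the subclones differed in this miRNA depended on the scaling. Scaled to the library total, hsa-miR-675-5p had a ratio of 1.19 in subclone2 over subclone1, with an interval of 0.915 to 1.55 that includes 1. Its log2 ratio stood 0.41 above the median of the kept miRNAs. The interval lay above 1 under each of 3 other scalings. The ratio was 1.40 (1.07 to 1.82) with TMM, which scales on miRNAs that change little between libraries, and 1.38 (1.06 to 1.80) with the median of the ratios. It was 1.31 (1.01 to 1.71) with totals that leave out the 10 most abundant miRNAs. With the library total, 1.57% of 191 kept miRNAs were called higher. hsa-miR-675-5p, the only member kept, was not among them.

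The other 3 members fell below the 10 CPM minimum in every comparison. hsa-miR-675-3p was at least 2.95-fold higher in subclone1 and at least 4.04-fold higher in subclone2 than the limit of 3 counts in the parent, if the 4 and 7 counts are taken as exact. With their counting error included, the lower ends of the exact intervals of the ratio to the parent were 1.46 and 2.49. Its ratio of subclone2 over subclone1 was 1.37, with an interval of 0.348 to 6.37. No ratio can be given for either arm of miR-483. With both arms of miR-675 summed, the counts were 45, 102 and 156, which gave ratios of 5.02 (3.50 to 7.29) for subclone1 and 5.997 (4.28 to 8.55) for subclone2 over the parent.

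The place of hsa-miR-675-5p among all detected miRNAs moved in the same way. Ordered by counts it was number 225 of 743 in the parent, and 135 of 670 and 120 of 675 in the subclones. It remained a miRNA of modest abundance even in the subclones, where hsa-miR-192-5p alone stood at 60246 and 69068 CPM.

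Nearly all miR-675 reads came from the 5p arm. The 5p arm held 45 of 45 counts in the parent, 98 of 102 in subclone1 (96.1%, exact 95% interval 90.3 to 98.9) and 149 of 156 in subclone2 (95.5%, 91.0 to 98.2). The exact 95% interval of the 3p share in the parent, at 0 counts, reached 7.87%, which is above the 4.26% of the pooled subclones. At that share 1.92 counts of hsa-miR-675-3p would have been seen in the parent. A 3p share in the parent smaller than that of the subclones was therefore not detectable at this depth. The odds of 5p against 3p in subclone2 over subclone1 gave a ratio of 0.869 (0.182 to 3.53).

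Other hairpins were often as uneven. In subclone1, 86 other hairpins had at least 100 counts over both arms, and their leading arm held a median of 98.4%. Of these, 50 had a leading arm with a larger share than hsa-miR-675-5p. In subclone2 the median was 98.6% over 88 hairpins, and 51 had a larger share. The 5p arm led in 65.1% of the other hairpins in subclone1 and 62.5% in subclone2.

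**Figure D2:**
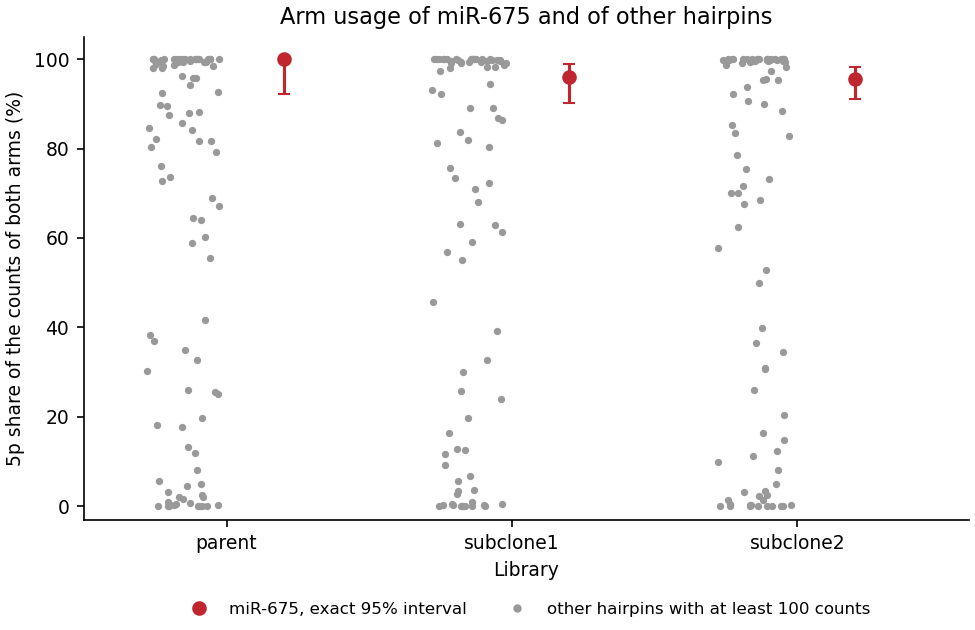
Share of the 5p arm among the counts of both arms, in percent, for miR-675 (red, with exact 95% intervals) and for every other hairpin with at least 100 counts in that library (grey, spread sideways for visibility). The miR-675 shares of 100% (parent), 96.1% (subclone1) and 95.5% (subclone2) lie near the top in each library, among many other hairpins. The parent share rests on 45 counts (interval 92.1 to 100%), under the minimum of 100 set for the other hairpins.

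hsa-miR-4466, which has the same seed and could pair with the same seed sites, added few reads to that seed in any strain. Its counts were 4, 4 and 3 in the parent, subclone1 and subclone2, or 0.506, 1.12 and 0.657 CPM. Beyond the seed the 2 sequences have little in common, with 2 equal bases among the 10 positions after base 8. In each library hsa-miR-675-5p had more counts than hsa-miR-4466, and listed names without a sequence in the table were not searched for this seed.

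The miRNAs whose pattern over the 3 libraries was most like that of hsa-miR-675-5p were sought by the distance between pairs of log2 ratios against the parent. Among 192 kept miRNAs the nearest was hsa-miR-10a-5p (distance 0.72), which lies in the HOXB gene cluster. It went from 178 CPM in the parent to 613 and 696 CPM in the subclones, with ratios of 3.45 (3.22 to 3.69) and 3.91 (3.67 to 4.17). hsa-miR-192-5p, a miRNA of liver and gut epithelium, followed at a distance of 0.83, with ratios of 3.25 (3.23 to 3.27) and 3.73 (3.70 to 3.75). The third, hsa-miR-215, also at 0.83, shares its seed with hsa-miR-192-5p. It had ratios of 2.71 (2.21 to 3.34) and 6.31 (5.32 to 7.51). The median distance of the kept miRNAs was 3.50. hsa-miR-675-5p itself, at 5.69 CPM in the parent, was kept through its levels in the subclones, so its place depends in part on the minimum. Moreover, 3 libraries with a shared parent allow no more than this description.

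**Figure D3:**
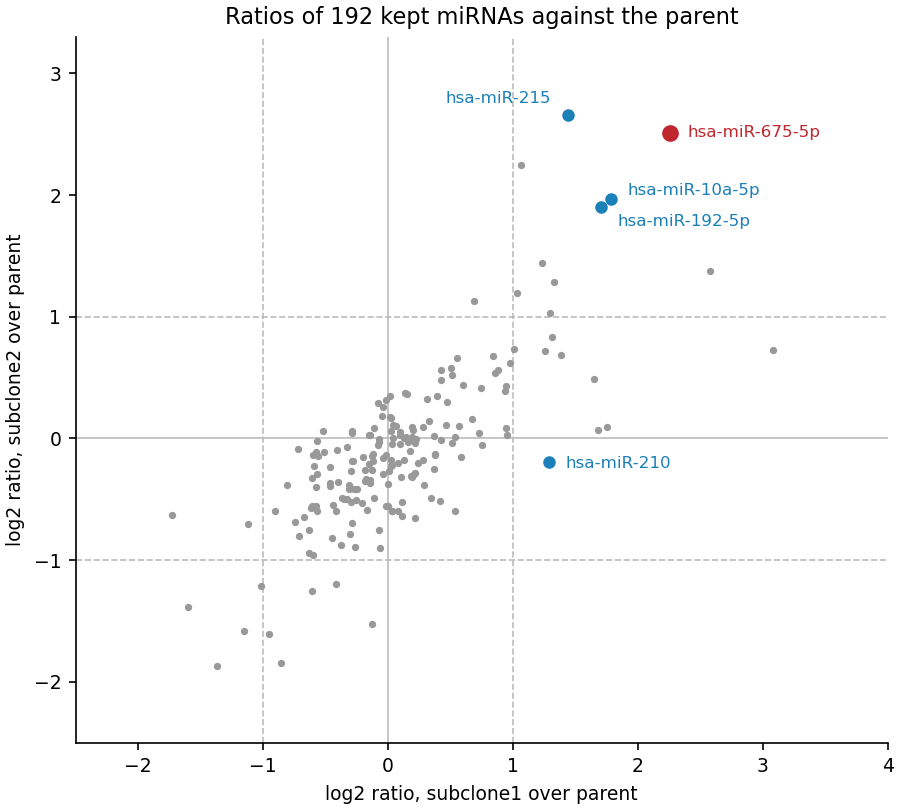
log2 ratio of subclone1 over parent (horizontal) and of subclone2 over parent (vertical) for 192 kept miRNAs, with dashed lines at 2-fold. hsa-miR-675-5p (red) lies at 2.26 and 2.51, apart from most miRNAs, with hsa-miR-215, hsa-miR-192-5p and hsa-miR-10a-5p nearest to it, while hsa-miR-210 lies near 0 in subclone2. Both axes share the parent library, and hsa-miR-675-5p, at 5.69 CPM in the parent, was kept through its levels in the subclones.

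The increase of miR-675 was then set beside other miRNAs encoded within 2 Mb of the MIR675 or MIR483 hairpin. Of the 5 such names listed beside the members, hsa-miR-4298, hsa-miR-4686 and hsa-miR-4687-5p had 0 counts in every library. hsa-miR-4687-3p had 17, 7 and 4 counts in the parent, subclone1 and subclone2, with a ratio of 0.911 (0.319 to 2.31) for subclone1 and 0.407 (0.0996 to 1.25) for subclone2 over the parent. hsa-miR-210, a miRNA induced by hypoxia whose hairpin lies 1428560 bases from MIR675, had 184, 203 and 93 counts. In CPM these are 23.3, 56.8 and 20.4. It was 2.44-fold higher in subclone1 (1.99 to 3.00), whereas in subclone2 its ratio of 0.874 had an interval that included 1 (0.674 to 1.13). hsa-miR-210 was thus called higher in subclone1 and not in subclone2, while hsa-miR-4687-3p lay below the 10 CPM minimum and could not be called.

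Other imprinted loci differed among themselves. The MEST locus encodes miR-335, whose arms together had 125, 40 and 52 counts in the parent, subclone1 and subclone2. Its level was 15.8 CPM (13.2 to 18.8), 11.2 (8.003 to 15.3) and 11.4 (8.50 to 14.9), with intervals that overlap. The ratio to the parent was 0.708 (0.483 to 1.02) in subclone1 and 0.720 (0.510 to 1.002) in subclone2, on the opposite side of 1 from miR-675. The subclone1 interval lay wholly below 1 under the other 3 scalings, with ratios of 0.674 to 0.679. Under the same scalings the subclone2 ratio was 0.756 to 0.810, with intervals that included 1. hsa-miR-335-5p went from 13.9 CPM in the parent to 9.24 and 9.41 CPM, while hsa-miR-335-3p had 1.90, 1.96 and 1.97 CPM. The GNAS locus, with 3 listed names of miR-296 and miR-298, had 0 counts in each library, as miR-483 did.

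The DLK1-DIO3 locus, whose miRNAs are expressed from the maternal chromosome like H19, had 73 listed names, of which 28 were detected and 0 were kept. Their summed counts were 52, 54 and 58, and their summed level went from 6.58 CPM (4.91 to 8.63) in the parent to 15.1 (11.4 to 19.7) and 12.7 CPM (9.64 to 16.4). The sum was 2.30-fold higher in subclone1 (1.54 to 3.43) and 1.93-fold higher in subclone2 (1.30 to 2.86), with intervals wholly above 1. The leading name, hsa-miR-382-3p, had only 10, 15 and 13 counts. The placental cluster C19MC, expressed from the paternal chromosome, had 1, 0 and 1 counts over 59 listed names. The DLK1-DIO3 sum in subclone2 was under 2-fold and averaged under 10 CPM with the parent, so it fell short of the size required of a single miRNA, and it reached 2.03 to 2.17-fold under the other scalings. IGF2, GNAS and C19MC gave too few counts for a comparison.

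**Figure D4:**
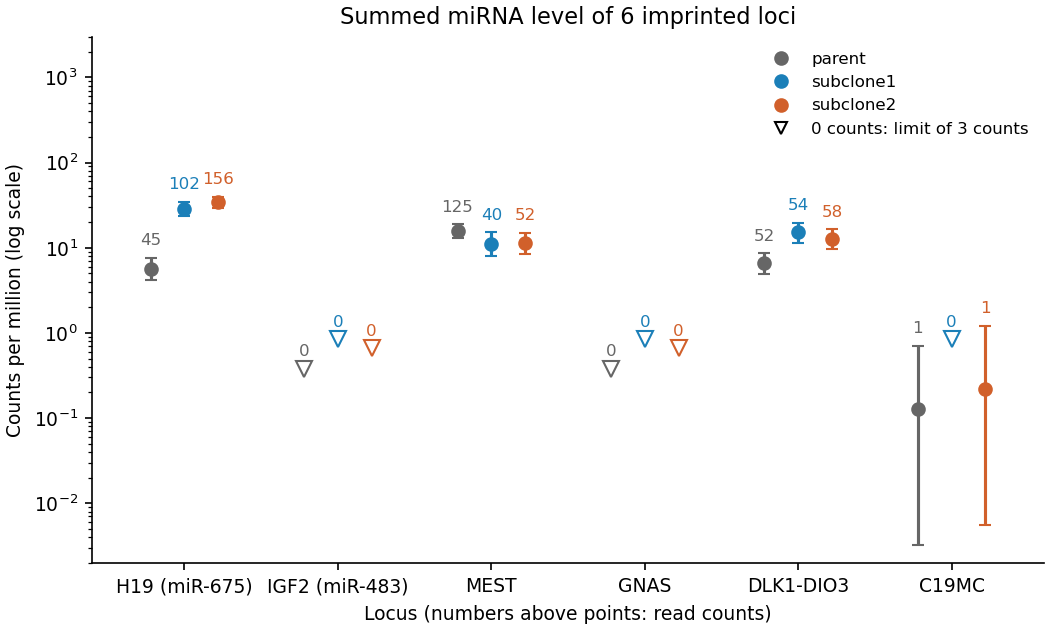
Summed level of the listed miRNAs of 6 imprinted loci in the parent, subclone1 and subclone2 libraries, in CPM on a log scale, with exact 95% binomial intervals, read counts and open triangles for limits at a count of 0. miR-675 of H19 goes from 5.69 CPM in the parent to 28.6 and 34.2 CPM in the subclones. MEST goes from 15.8 CPM to 11.2 and 11.4 CPM, with intervals that overlap.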

How the data were processed

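The authors deposited raw read counts per mature miRNA name, 1 table per strain, unscaled. Per the labels, libraries were made with the TruSeq Small RNA kit (Illumina) from 1 ug of RNA extracted with Trizol, and the submitters' processing notes name CASAVA 1.4 and hg19. Adapter trimming, aligner, mismatch limit, miRBase release and the treatment of reads that match several names are not given in the sources used here. Ligation bias affects any comparison between different miRNAs.

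Counts were scaled to the library total. Levels and shares carry exact binomial intervals (Clopper-Pearson), and ratios carry exact conditional binomial intervals, all at 95%. With 1 library per strain no test was possible. The call rule, a minimum mean of 10 CPM, 2-fold and 0.5 added counts, compares libraries, not conditions. It was tested on simulated data that vary by counting error alone, so differences between cultures or preparations are not covered. The named miRNAs are the 4 members, the 3 nearest patterns and names that share a seed with an arm of miR-675. Names within 2 Mb and the listed miRNAs of 4 further imprinted loci are also named. Members and lists were chosen with earlier results of these data known. Sequences came from RefSeq (GRCh38.p14), which held 1576 of the 1921 names, and host transcripts from GENCODE release 29 (GRCh38). Python 3.11.15, scipy 1.17.1 and edgeR 4.0.16 (TMM factors only) were used. The alternatives were TMM and median-of-ratios scaling, the total without the 10 most abundant miRNAs, other minimum levels and fold thresholds, an interval beyond 2-fold, a pseudocount of 5 counts and 0.5 counts added to each arm.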

Additional observations from a re-analysis of the deposited data

Results flagged for a closer look

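hsa-miR-210, encoded on the same chromosome arm as H19 and IGF2, had log2 ratios of opposite sign in the subclones against the parent. The log2 ratio was 1.29 for subclone1 and -0.19 for subclone2, the latter with an interval that includes 0, and -0.02 for subclone2 with TMM scaling. The log2 ratio of subclone2 over subclone1 was -1.48 (interval -1.85 to -1.12, counting error only). The difference was not tested, since each strain has 1 library.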

How the results depend on the processing

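No paired analysis was possible because each strain holds 1 library, and for the same reason no library could be left out. Under 3 other scalings and a pseudocount of 5 counts, the log2 ratio of hsa-miR-675-5p over the parent was 2.19 to 2.20 in subclone1. Each of these lay below the reported 2.26. The same alternatives gave 2.41 to 2.68 in subclone2 over the parent, and 0.22 to 0.48 between the subclones. TMM scaling moved the median of all kept miRNAs in subclone2 against the parent from -0.15 to 0.02, and between the subclones from -0.17 to 0.07. The number of H19 and IGF2 miRNAs called higher than the parent was 1 in each subclone. It became 0 with a minimum of 100 CPM, which no member reached. It became 2 with no minimum level, where hsa-miR-675-3p was added on 4 and 7 counts against 0 in the parent. Over all kept miRNAs, 5 of 91 in subclone1 and 3 of 87 in subclone2 were called higher at 100 CPM. With no minimum these were 45 of 825 and 35 of 827. The 4 counts of called members moved because the minimum decides which members are compared. The other 87 of 91 recomputed values stayed within the interval of the reported value or equalled the reported count, and 0 reversed. Between the subclones, though, the interval of hsa-miR-675-5p included 1 with the library total and lay above 1 under the 3 other scalings. The scalings of hsa-miR-210 and of the MEST and DLK1-DIO3 sums were chosen after seeing the data. Depth limits the members other than hsa-miR-675-5p, which rest on at most 7 counts in a library. Ratios of miR-483 could not be computed under any setting.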
